A study of Mus musculus with 15 samples.

Results

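The p53 family consists of the transcription factors p53, p63 and p73, encoded in the mouse by Trp53, Trp63 and Trp73. These genes were examined together with Wrap53, the head-to-head neighbour of Trp53. All regions of the 3 deposited p53 ChIP-seq lists that lay inside one of the 4 genes or within 20 kb of it (RefSeq, mm10) were taken. The rule used position only and no score. It gave 3 distinct regions of 4137 in all, with 3 in the liver list, 2 in the spleen list and 2 in the thymus list. Trp53, Wrap53 and Trp73 each had a region in every list, as did 9.18% of all 21887 coding genes, and Trp63 had none. Per list, 3 of the 4 genes had a region, where the share of all coding genes was 22.3% for liver, 12.8% for spleen and 11.6% for thymus. Trp53 and Wrap53 share their regions, so the 3 genes stand for 2 separate loci, and no test was made of so small a set.

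ChIP-seq (chromatin immunoprecipitation followed by sequencing) records the DNA fragments that an antibody recovers with a protein. The labels describe 15 libraries from organs of wild-type mice, 5 each from liver, spleen and thymus: 2 taken 3 h after 2 Gy of X-rays, 2 from untreated mice, and 1 of input, the chromatin before any antibody was added. The authors deposited 1 list per organ, which the labels assign to all 5 of its libraries, although the lists are named for irradiation and IgG. Values per library were not analysed here, so neither an effect of radiation nor a spread between replicates can be given, the read depth behind each region is unknown, and no comparison between organs carries a test.

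p53 is a tumour suppressor that is stabilised after DNA damage and switches on genes of cell cycle arrest, apoptosis and its own inhibition. It binds DNA as a tetramer at response elements made of a pair of decamers, called half-sites. p63 and p73 share its DNA-binding domain and can bind similar elements, and they are best known for roles in stratified epithelia (p63) and in neural development and multiciliated cells (p73). Trp73 has an upstream and an internal promoter, and transcripts from an internal promoter encode amino-terminally truncated forms (ΔNp73) that inhibit p53 and full-length p73. Wrap53 encodes a WD-repeat protein (also called TCAB1) that brings telomerase and small Cajal body RNAs to Cajal bodies. In human cells, an antisense transcript of its orthologue has been described as a regulator of p53 mRNA.

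The sequence under the region at the start of Trp53 is shown because that region covered the whole gap between a pair of divergent genes. Wrap53 spans chr11:69561754-69580250 on the minus strand and Trp53 spans chr11:69580348-69591873 on the plus strand, which leaves 97 bp between the gene spans. The region chr11:69580201-69580350 is 150 bp wide and contains all 97 of these bases, the first 50 bp of Wrap53 and 3 bp of the Trp53 span. The stretch between the genes is given below from RefSeq (GRCm38.p6, the assembly that mm10 names), at chr11:69580251-69580347 on the plus strand, the strand of Trp53. Capitals mark a match to the p53 half-site consensus.

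Trp53 upstream stretch: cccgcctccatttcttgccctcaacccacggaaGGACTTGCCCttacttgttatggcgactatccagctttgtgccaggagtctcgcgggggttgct

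The match, at chr11:69580284-69580293, lay inside the region and 13 bp from its midpoint. Its near edge was 66 bp upstream of the Trp53 start and its far edge 34 bp from the Wrap53 start. The motif searched was the p53 half-site consensus, a palindromic decamer with the core CNNG (N for any base, restricted to A or T by the consensus), so that both strands are covered by the same search. This was the 1 match in the promoter window of Trp53, which runs from 250 bases before to 50 after the annotated start. The Wrap53 window overlaps it and holds the same match. The other window of Wrap53, at a start 1001 bp further into the gene, and both windows of Trp73 had no match. Trp63 has no promoter window in the annotation used, so it was not searched. The Trp73 windows do not reach the region inside that gene, and neither that region nor the one inside Trp53 was searched.

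Half-sites of this kind were not rare in promoters. Of 32851 promoter windows of the same length in the table, 8.36% held at least 1 match. The share was 7.21% of the 1720 windows that overlapped a liver region, 11.2% of the 507 that overlapped a spleen region and 11.4% of the 422 that overlapped a thymus region. Windows without a region of the list held a match in 8.42%, 8.31% and 8.32% of cases for liver, spleen and thymus. The best partner within 13 bases of the Trp53 match was the adjacent decamer, which differed from the consensus at 3 positions. A partner at least that close to the consensus was found in 93.3% of all windows that held a match. An exact pair of half-sites with at most 13 bases between them occurred in 24 windows (0.0731%), and not in those of Trp53, Wrap53 or Trp73. Of windows that overlapped a region, 3 held such a pair for each list, which is 0.174% for liver, 0.592% for spleen and 0.711% for thymus. The shares in windows without a region were 0.0675%, 0.0649% and 0.0648%. Overlapping windows, such as those of Trp53 and Wrap53, were counted separately, so the 3 windows may stand for fewer loci. Whether they were the same windows for each list was not examined, and no test was made of these shares. A match is a description of the letters and does not show where a protein was bound.

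**Figure D1:**
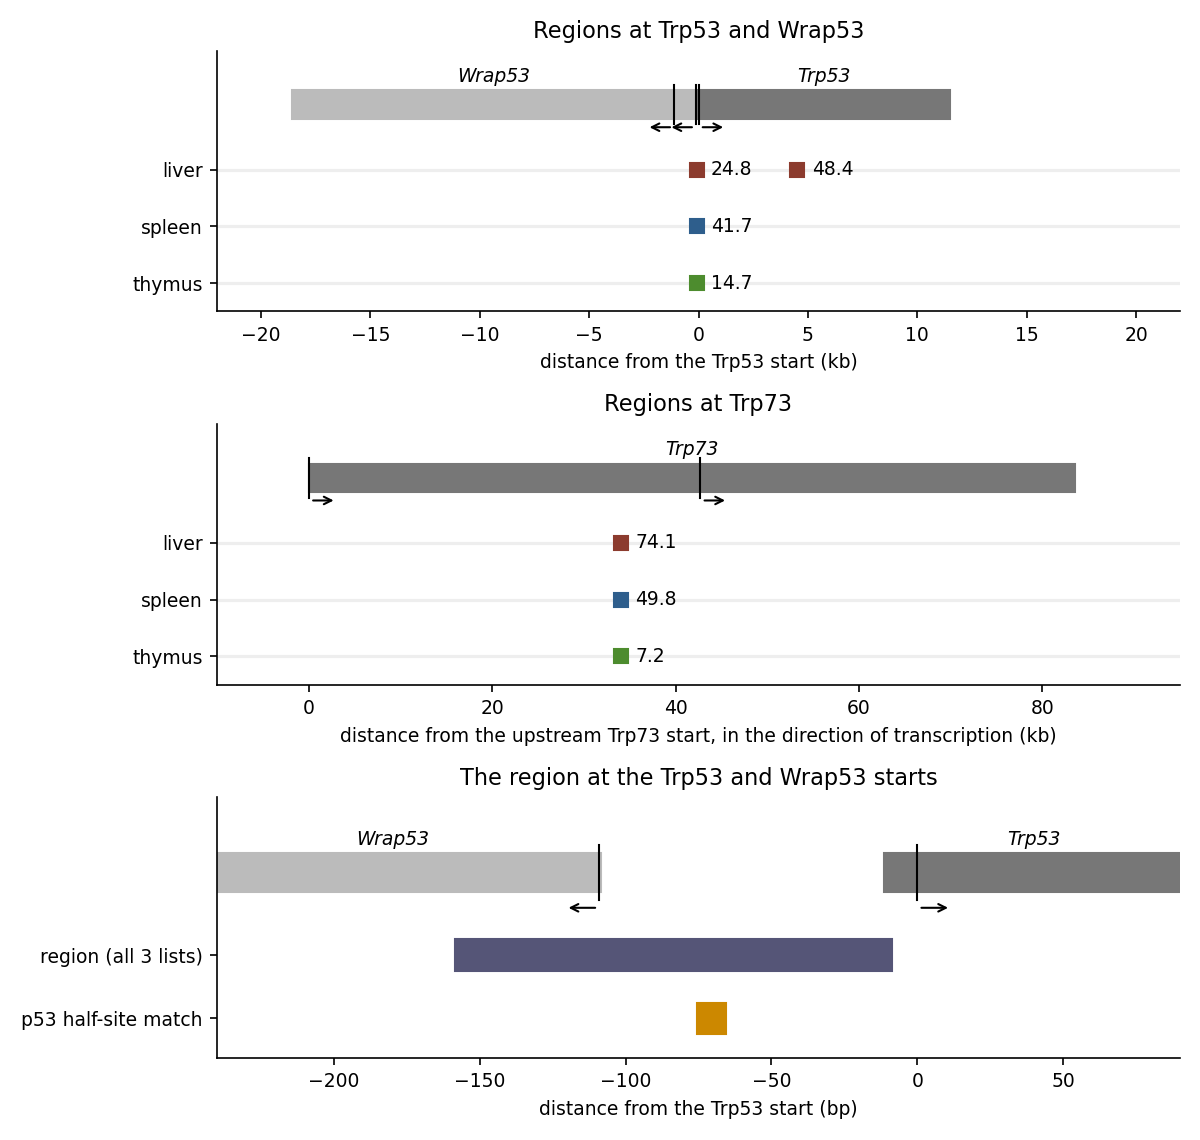
Upper and middle panels: regions of each organ list (squares, drawn larger than scale) at Trp53 with Wrap53 and at Trp73, by distance in kb from the Trp53 start or from the upstream Trp73 start. Bars are gene spans, vertical ticks with arrows are annotated starts, and the numbers are score percentiles within the list. Lower panel: the region at the paired starts to scale in bp, with the half-site match, which sits between the Wrap53 and Trp53 starts.

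Trp53 itself held 2 regions in the liver list and 1 in each of the other lists. The region at the paired starts was in all 3 lists with identical boundaries. It covers the Wrap53 start and ends 9 bp before the annotated Trp53 start, itself 11 bp inside the gene span. Its midpoint was 83.5 bp upstream of the Trp53 start and 25.5 bp upstream of the Wrap53 start, so its position does not assign it to one gene of the pair. The authors' score was 16.0 in the liver list, 17.9 in the spleen list and 9.32 in the thymus list. Their scale is not stated, so scores serve only as ranks within a list. A score percentile is the share of a list's regions with a lower score, with ties averaged. The paired-start region stood at the 24.8 percentile of the liver list, 41.7 of the spleen list and 14.7 of the thymus list. It thus ranked below the middle of each list, at rank 2913 of 3872, 1519 of 2604 and 2051 of 2405 from the top. With each list shortened by score to 2405 regions, the paired-start region was no longer in the liver list, and 2 regions were left at these loci in liver.

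A further Trp53 region was in the liver list alone. It spans chr11:69584801-69584950, 150 bp that lie wholly inside the gene, with the nearer edge 4442 bp downstream of the Trp53 start. The annotation table gives no exons, so the region is placed inside the gene without naming an exon or intron. Its liver score was 20.7, the 48.4 percentile, close to the middle of the list and above the paired-start region of the same gene. The 2 liver regions of Trp53 were 4450 bp apart. Of all 21887 coding genes, 4.09% had 2 or more liver regions inside or within 20 kb. The internal region also lay within 20 kb of Wrap53, 4551 bp from its start, and was counted for that gene too.

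The internal Trp53 region was set beside the regions found in no list but that of liver, itself included. Of these 1255 regions, 184 (14.7%) had their midpoint inside a gene and more than 1 kb from any gene end, as this one did. Its percentile of 48.4 was within the middle of those 184 regions, whose median was 44.3 (quartiles 16.1 and 71.0). Absence from the spleen and thymus lists means that no region was called there, and with unknown depth it is no measure of lower signal.

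Wrap53 shared both of its regions with Trp53 and had none of its own. The paired-start region overlapped the Wrap53 span by 50 bp in every list. Its alternative start was 952 bp from the region's nearer edge. No other region lay inside the 18.5 kb of the gene. Of 748 head-to-head pairs of coding genes whose starts are at most 1000 bp apart (median 151 bp; 109 bp for Wrap53 and Trp53), 149 (19.9%) had a liver region touching the stretch between the starts, 42 (5.61%) a spleen region and 34 (4.55%) a thymus region. The Wrap53 and Trp53 pair was among the 22 pairs (2.94%) in which the same region was in all 3 lists.

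Efnb3, which encodes the ligand ephrin-B3, and Atp1b2, which encodes a beta subunit of the sodium pump, were the other coding genes within 20 kb of the Trp53 regions. Efnb3 lay 19051 bp from the paired-start region. Atp1b2 lay 19378 bp from it and 14778 bp from the internal region. Both are farther from the regions than Trp53 and Wrap53, whose spans or starts the paired-start region touches.

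Trp73 held 1 region, in all 3 lists and deep inside the gene. The gene spans chr4:154056249-154139875 on the minus strand, and the region chr4:154105701-154105950 is 250 bp wide. The table lists 2 starts for Trp73, 42.7 kb apart, and the region fell between them. It was 33.9 kb downstream of the upstream start and 8528 bp upstream of the internal start. The table does not say which protein form begins at which start. No other coding gene lay within 20 kb.

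The rank of the Trp73 region differed widely between the lists. It scored 26.0 in the liver list, 19.997 in the spleen list and 8.08 in the thymus list. These correspond to percentiles of 74.1, 49.8 and 7.17. In liver it was thus in the upper part of the list and above both Trp53 regions. In spleen it was at the middle and also above the paired-start region, while in thymus it was near the bottom and below it.

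**Figure D2:**
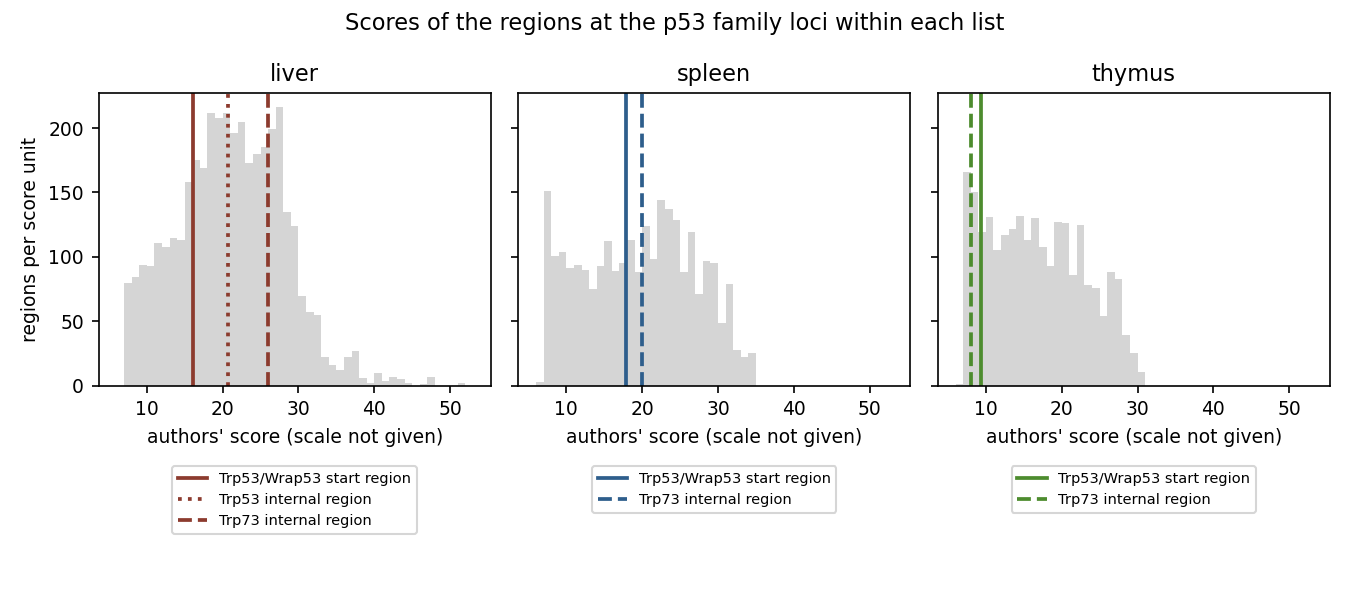
Number of regions (y axis) by the authors' score in bins of 1 unit (x axis) for the liver, spleen and thymus lists, in grey, with lines at the regions of the p53 family loci. In thymus both lines stand near the low end of the list, at percentiles of 7.17 and 14.7, while in liver the Trp73 region stands at 74.1.

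The differences in rank were set beside those of all 1930 regions that the 3 lists share. For the Trp73 region the percentile in liver minus that in thymus was 66.9 points (74.1 and 7.17), larger than in 95.5% of the shared regions. The middle 50% of these regions ran from -27.8 to 20.5 points. Spleen minus thymus was 42.6 points (49.8 and 7.17), larger than in 93.8% of the shared regions, whose quartiles were -13.3 and 17.0. Liver minus spleen was 24.3 points (74.1 and 49.8), larger than in 81.0% (quartiles -28.6 and 16.8).

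For the paired-start region of Trp53 and Wrap53 the differences were smaller. Liver minus thymus was 10.04 points (24.8 and 14.7), inside the middle 50% of the shared regions. Liver minus spleen was -16.9 points (24.8 and 41.7), also inside it. Spleen minus thymus was 26.9 points (41.7 and 14.7), larger than in 84.9% of the shared regions. With 1 list per organ, no replicate spread is known against which these differences could be judged.

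**Figure D3:**
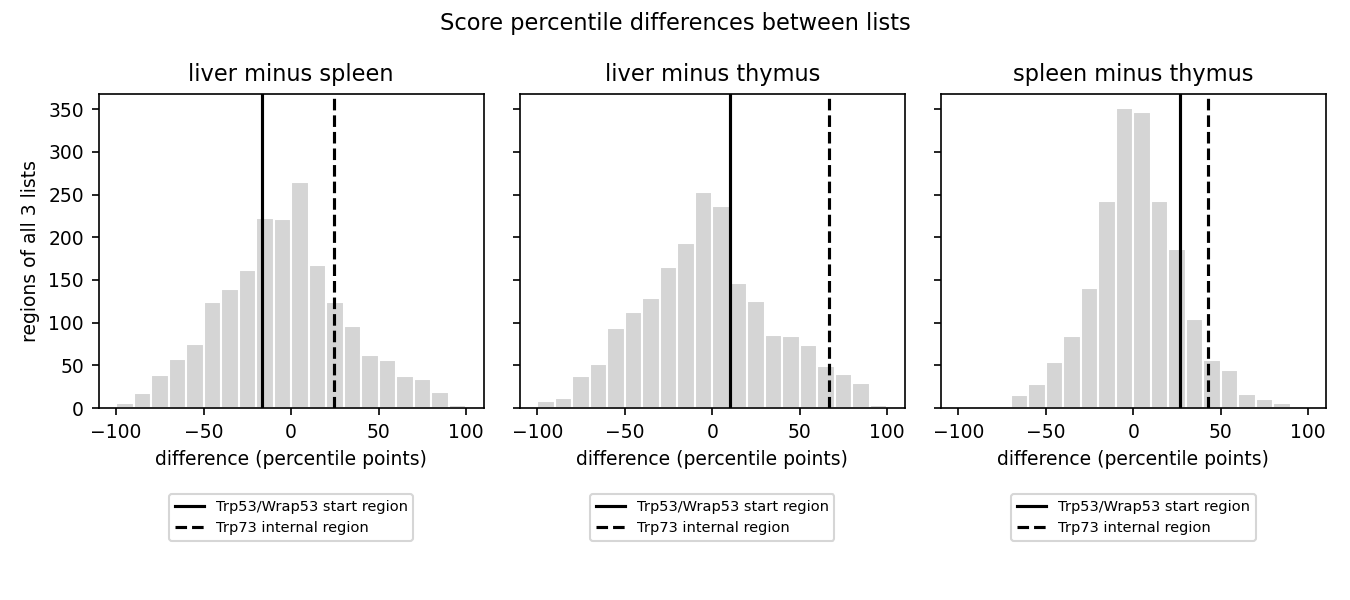
Differences in score percentile between pairs of lists (x axis, percentile points) over the 1930 regions in all 3 lists (y axis, regions per bin of 10 points). The dashed line is the Trp73 region, at 24.3, 66.9 and 42.6 points, and the solid line is the paired-start region of Trp53 and Wrap53, at -16.9, 10.04 and 26.9 points.

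Trp63 had no region in any list. The gene spans chr16:25683763-25892088, a length of 208 kb, which makes it the longest of the 4 genes. The nearest region in each list was chr16:24475601-24475750, which overlaps Lpp, 1.21 Mb away. By distance to the nearest region, 91.7% of coding genes were closer to one in liver, 88.1% in spleen and 86.8% in thymus. Among coding genes of 50 kb or more, these shares were 94.0%, 90.3% and 88.9%. No region lay within 500 kb of Trp63 in any list. Within that distance Trp53 had 10, 4 and 3 regions and Trp73 had 2, 2 and 1, for liver, spleen and thymus. These counts include the regions inside the genes. The same count was not made over all coding genes, so it is not known how usual these numbers are. The lack of a region is shared by most genes: 77.0% of all coding genes, and 71.5% of those of 50 kb or more, had none within 20 kb in any list.

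Gene length bears on how many regions a gene can hold. Among genes of 50 kb or more, the length class of Trp73 and Trp63, the shares with a region inside or within 20 kb were 27.2% in liver, 18.9% in spleen and 17.4% in thymus. Among shorter genes, the class of Trp53 and Wrap53, they were 20.9%, 11.0% and 9.86%.

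No region of the 3 lists lay just at the 20 kb limit. The farthest distance inside it was the 4551 bp from the internal Trp53 region to Wrap53. The nearest region outside it was chr11:69632501-69633050, in the liver list alone (percentile 75.01), which overlaps Fxr2 and lies 40.6 kb from Trp53 and 52.3 kb from Wrap53.

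Direct targets of p53 were set beside the family loci. They were chosen with earlier results of these data known, so their shares and percentiles are a description and no test. Of the 20 direct targets, 17 had a region inside or within 20 kb in the liver list, 17 in spleen and 16 in thymus. A region in every list was found for 16. Of all coding genes, 22.3% had one in liver, 12.8% in spleen, 11.6% in thymus, 9.18% in every list and 77.0% in none. The median of the targets' best percentiles was 99.1 for liver, 89.0 for spleen and 88.9 for thymus, over the targets with a region. The best regions of the family loci reached 74.1, 49.8 and 14.7, so they stood below these medians in each list. The 3 targets without a region in any list were Perp, an apoptosis gene that p63 also regulates in epithelia, Tigar, a regulator of glycolysis, and Rrm2b, a ribonucleotide reductase subunit. Bbc3 (Puma), a BH3-only inducer of apoptosis, had the highest percentile of these targets, in liver. Bax, an effector of apoptosis, Trp53inp1, a stress-induced partner of p53, Zmat3, which encodes an RNA-binding zinc finger protein, and Mdm2, the ubiquitin ligase for p53, followed. Their liver percentiles ran from 99.8 for Zmat3 and Mdm2 to 99.97 for Bbc3. In the spleen list the 5 genes stood between 92.4 (Trp53inp1) and 99.6 (Zmat3). In the thymus list Bbc3 and Zmat3 stood at 99.8, Bax at 95.3, Trp53inp1 at 89.0 and Mdm2 at 42.2.

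Genes whose products regulate or bind p53, p63 or p73 were counted in the same way. Of 21 genes, 11 had one in liver, 7 in spleen and 7 in thymus. In all, 4 had one in every list and 9 in none. The shares of all coding genes were 22.3%, 12.8% and 11.6% for liver, spleen and thymus, 9.18% for every list and 77.0% for none. Median best percentiles were 42.5, 36.3 and 33.2. By the best percentile in any of the lists, Mdm2, which is in this list too, came first. Mdm4, the partner of Mdm2 in restraining p53, came next by that measure, at 88.1 in the liver list, 95.4 in the spleen list and 98.5 in the thymus list. Cop1, another ubiquitin ligase for p53, stood at 90.9 in liver and 12.8 in spleen. Ppm1d, the phosphatase Wip1, stood at 69.7 in the liver list, 16.5 in the spleen list and 18.8 in the thymus list, and Rchy1 (Pirh2), a further ligase, at 63.4 in liver and 36.3 in spleen. Itch, a ubiquitin ligase for p63 and p73, Yap1, a coactivator of p73, and the p53-binding ASPP family genes Ppp1r13b, Trp53bp2 and Ppp1r13l were among these 9.

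Of the 8 telomerase and Cajal body partners of Wrap53, 1 had a region in liver and 1 in spleen, in both cases Coil, which encodes the Cajal body scaffold coilin, at percentiles of 37.2 and 20.4 and 7688 bp from the gene. In thymus there were 0 of 8. With 22.3%, 12.8% and 11.6% of all coding genes holding a region in these lists, counts of 1, 1 and 0 among 8 genes are near or below the background. Terc is an RNA gene, so it is among the 8 but not among the coding genes of this background. The telomerase genes Tert and Terc had none within 20 kb in any list, and the nearest region to Tert was 22861 bp away in liver and spleen.

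**Figure D4:**
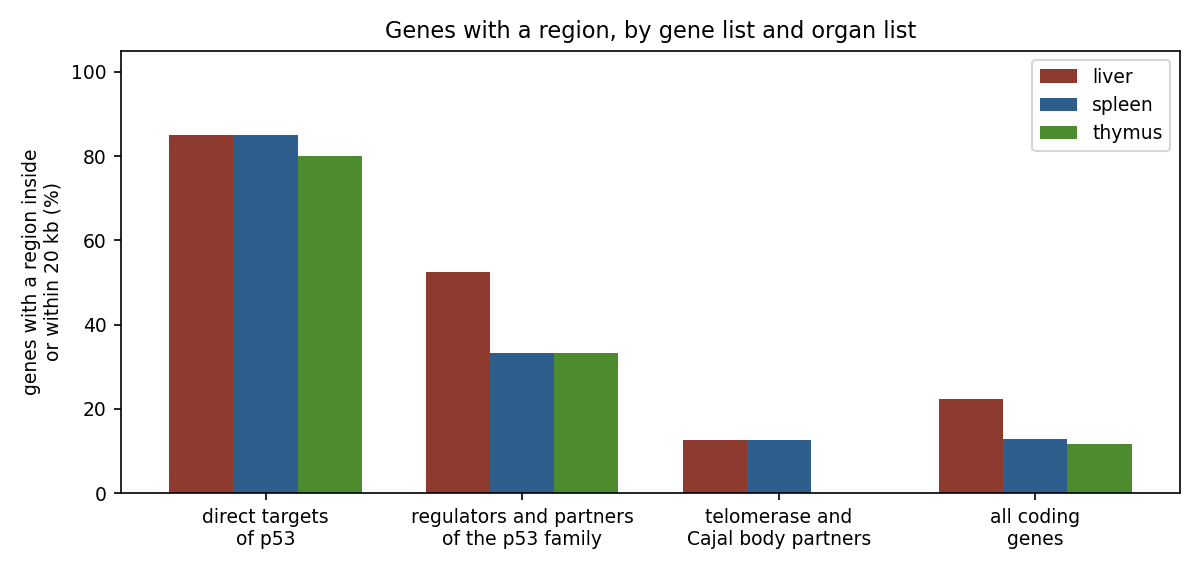
Share of genes (y axis, percent) with a region inside or within 20 kb, for 3 gene lists and for all coding genes (x axis), in the liver, spleen and thymus lists (bars). Direct targets of p53 stand at 85% in liver and spleen and 80% in thymus, against 22.3%, 12.8% and 11.6% of all coding genes. The gene lists were chosen with earlier results of these data known.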

How the data were processed

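The authors deposited 3 headerless region lists of 6 columns, 1 per organ. Per region they hold a score, which the authors computed and deposited without a stated scale. The build mm10 comes from the submitters' processing notes. Which aligner, region caller, control and pooling were used is not given in the sources at hand. Region boundaries lay on multiples of 50 bp, and of the 4137 distinct regions 0 overlapped another only in part, so the lists appear as subsets of a common set and share identical boundaries by construction.

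Gene spans and promoter windows came from RefSeq (GRCm38.p6). A region was counted for a gene when at least 1 bp lay inside the gene or within 20 kb. Scores were ranked within a list. Distances, ranks and motif matches were computed with Python 3.11.15 and pandas 2.3.3, and the distance step was checked on constructed cases. No test over samples was made, since values per library were not analysed here. All 49 entries of the 3 gene lists matched (Mdm2 is in 2 of them). The text names the 4 genes, coding genes within 20 kb of their regions, and up to 5 genes per list with the highest percentile in any organ; genes without a region, and those overlapping the next region outside the limit, were named after their values were seen. The members and lists were chosen with earlier results of these data known. The shares over head-to-head pairs, windows that overlap a region and liver-only regions were added after the data were seen. Alternatives were other windows, midpoints, score thresholds, list lengths, overlap rules and percentile definitions.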

Additional observations from a re-analysis of the deposited data

How the results depend on the processing

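Of 92 recalculated values, 60 stayed the same and 32 moved. A count stayed the same within 1.5 times, and a percentile or share within its exact 95% binomial interval. That interval, over regions or genes taken as independent, served only as a limit for the label and measures no spread between libraries. The 3 genes with a region in each list numbered 3 under every window, by midpoints and with lists of equal length. With equal lengths the paired-start region left the liver list, and Wrap53 counted there only through the internal Trp53 region, 4551 bp away. Of the regions at these genes, only that of Trp73 was then in all 3 lists. The rule of at least 50% shared could not change the 2 regions in all 3 lists, because shared regions have identical boundaries. Percentiles by strictly lower scores differ from the main ones only in how ties and the region itself count. The values from both rules are among those that stayed the same. Under the window, midpoint and equal-length settings, regions at these genes stayed at 2 in spleen and thymus. In liver they were 3, or 4 with 50 kb and 2 with equal lengths. Among the upper 50% of regions by score, 1 region and 1 gene were left in liver (Trp73), and 0 regions and 0 genes in spleen and in thymus. The share of all coding genes with a region was 15.2%, 8.11% and 7.17% (liver, spleen, thymus) with 5 kb, 10.8%, 5.91% and 5.29% in the gene body alone, 33.4%, 20.9% and 19.2% with 50 kb, 12.7%, 5.81% and 5.23% in the upper 50%, and 15.3% in liver and 11.3% in spleen with lists shortened to 2405 regions. Telomerase and Cajal body genes with a region numbered 0 in liver and 0 in spleen with 5 kb and in the gene body alone, and 3, 2 and 1 with 50 kb. Among the regions of all 3 lists, the paired-start region stood at 32.2 in spleen and 10.1 in thymus, and the Trp73 region at 70.3, 40.4 and 4.64. The Trp53 region of liver alone has no such percentile. No paired analysis was possible because the lists hold no values per library, and no library could be left out for the same reason. Read depth is unknown, so a missing region is not evidence of missing signal.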
